A study of Mus musculus with 18 samples.

Results

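CD4 and CD8 T cells of wild-type bone marrow were compared in 6 of the 18 libraries of the series, 3 of CD8 and 3 of CD4 T cells. The members were chosen by their labels, which name the C57BL/6 strain, the sorted cell type and the treatment. All 6 libraries came from mice that drank zinc-enriched water for 30 days, so no untreated wild-type sample enters the comparison. The other 12 libraries came from pMT-10 mice, a strain whose name stands for an interleukin-10 transgene under a metallothionein promoter that zinc switches on, with zinc (3 CD4 and 3 CD8) or with control water (3 CD4 and 3 CD8). The cells were purified by fluorescence-activated sorting and their RNA was read with a targeted panel that amplifies 1 short piece per gene. The labels do not tie libraries to mice, so p-values measure the spread between libraries. Age is not given in the labels used here.

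CD4 and CD8 are the coreceptors that T cells use to read peptides on MHC class II and class I molecules. In the thymus the zinc finger factor ThPOK (Zbtb7b) keeps cells in the CD4 lineage and represses Runx3, while Runx3 silences Cd4 in the CD8 lineage. Bone marrow is known as a home of recirculating and memory T cells and holds many regulatory T cells (Treg), a CD4 population set by the factor Foxp3.

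Levels are given as CPM, counts per 1000000 counts of the library, with library sizes adjusted by the TMM method. The 6 libraries held 11111558 to 15214859 counts. A gene counted as called when its Benjamini-Hochberg adjusted p in edgeR's quasi-likelihood test was under 0.05 over the 11316 genes tested, and every adjusted p below is from that test unless another is named. Log2 differences are CD8 minus CD4, as fitted, with their standard error (SE), so positive values are higher in CD8. Each gene was read by its own amplicon, so levels were not compared between genes.

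The sorted coreceptors matched the labels in every library. Cd4 was 2236, 2269.9 and 2067 CPM in the CD4 libraries and 2.66, 1.22 and 5.56 CPM in the CD8 libraries. Cd8a was 2266, 2401 and 2571 CPM in the CD8 libraries and 2.28, 10.03 and 2.67 CPM in the CD4 libraries. Cd8b1, the partner chain of the CD8 heterodimer, was 2511, 2280.1 and 2647 CPM in the CD8 libraries and 21.4, 35.5 and 26.9 CPM in the CD4 libraries. The reads of the opposite coreceptor were thus few, and CD4 replicate 2 held the most Cd8a and Cd8b1 reads of the CD4 libraries. The CD3 chain Cd3e, a defining T cell gene, was 930.0, 1064 and 1171 CPM in the CD4 libraries and 1282, 1501 and 1259 CPM in the CD8 libraries and was not called (log2 difference 0.35 ± 0.13, adjusted p = 0.054).

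Some libraries stood apart. CD4 replicate 1 and CD8 replicate 1 had reads for 14478 and 13278 genes, and the other 4 libraries for 11731 to 12557. Reads of 4 Y-linked genes summed to 2866 to 5188 counts in each wild-type library and to at most 8 in each pMT-10 library, while Xist, the RNA of the inactive X chromosome, ran from 6117 to 18633 counts in the pMT-10 libraries, so strain and sex cannot be told apart. Xist was 0.456, 7.49 and 40.1 CPM in the CD4 libraries and 0.172, 2.15 and 0.803 CPM in the CD8 libraries, with a mean of 645 ± 129 CPM (SD, n = 3) in the zinc-fed pMT-10 CD4 libraries. CD4 replicate 3 therefore held more Xist reads than any other wild-type library. Of the 276 genes named by rule and called in wild type, 75 (27.2%) had their CD4 libraries in the same order, with replicate 3 highest and replicate 1 lowest. Some genes take this order by chance, and the share over all genes tested was not counted. Without CD4 replicate 3, 64 of these 75 calls held and 11 were lost. Leaving out single libraries lost 21 to 36 of the 276 calls, with 25 lost without CD4 replicate 3. The log2 difference was 1.71 for Runx3, 2.66 for Eomes, -6.43 for Ctla4, 1.68 for Xcl1 and -3.70 for Zbtb16 without it, each still called (adjusted p = 0.043 at most), against 1.56, 2.27, -6.65, 1.43 and -4.59 with it. Per the labels, all zinc-fed libraries were read on 1 chip while control-water libraries were on a second one.

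Of the markers of other marrow cells, several defining genes had no reads. Neutrophil markers summed to 1.73 to 2.66 CPM in the CD4 libraries and 0.268 to 1.5 CPM in the CD8 libraries, with Mpo at 0. Monocyte and macrophage markers summed to 18.6 to 19.99 CPM in the CD4 libraries and 6.69 to 15.6 CPM in the CD8 libraries, with Fcgr1 and C1qa at 0. B cell markers summed to 27 to 32.4 CPM in the CD4 libraries and 43.4 to 53.1 CPM in the CD8 libraries, of which Cd79b made up 80.3%, with Pax5, Ebf1 and Blnk at 0. Plasma cell markers summed to 207 to 221 CPM in the CD4 libraries and 77.8 to 125 CPM in the CD8 libraries, of which Xbp1 made up 78.1%, with Tnfrsf17 at 0. Stem cell markers summed to 456 to 601 CPM in the CD4 libraries and 43.8 to 58.2 CPM in the CD8 libraries, of which Ly6a, which T cells also express, made up 99.8%, with Cd34 and Hoxa9 at 0. Those of platelets summed to 55.8 to 67 CPM in the CD4 libraries and 13.4 to 14.8 CPM in the CD8 libraries, of which Itgb3 made up 94.5%. Erythroid markers summed to 18.5 to 22.2 CPM in the CD4 libraries and 27.6 to 30.8 CPM in the CD8 libraries, of which Tfrc made up 73.7%. Dendritic cell markers summed to 119.6 to 139 CPM in the CD4 libraries and 149 to 229 CPM in the CD8 libraries, of which Bst2 made up 96.3%. Neither sum overlapped between the cell types, and both were higher in CD8. Stromal markers summed to at most 405 CPM, of which Pecam1 made up 99.9%, and mast cell and basophil markers to at most 4.15 CPM. Markers of gamma-delta and natural killer T cells summed to 44.3 to 56.5 CPM in the CD4 libraries and 35.9 to 40.2 CPM in the CD8 libraries, of which Klrb1c made up 77%. Single markers were called in both directions, among them Ms4a6c, Car1, Sdc1, Xbp1, Zbtb46, Prg2 and Itgb3 as higher in CD4 and Tfrc, Fcer1g and Cd163l1 as higher in CD8. Car1, Sdc1 and Prg2 were at means of 2.11 ± 1.64, 1.16 ± 0.528 and 1.18 ± 0.814 CPM in CD4 (SD, n = 3), and the Car1 and Sdc1 calls were lost without single libraries. Tfrc, Bst2, Xbp1, Ly6a, Itgb3 and Pecam1 are known to be expressed in T cells as well. The part of these markers in the differences was not tested.

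Gene lists and their members were chosen with earlier results of these data known. Counts by list, here and below, are therefore descriptive. Of 18 genes listed for coreceptors and lineage choice, 7 were higher in CD8 and 6 higher in CD4. Cd4, Cd8a and Cd8b1 encode the proteins used to sort the cells, and without them 5 of 15 were higher in each cell type. Over all genes tested 9.28% were called higher in CD8 and 12.9% higher in CD4. The median log2 difference was 0.11 for the list and -0.02 over all genes tested. Zbtb7b was 149, 145 and 192 CPM in the CD4 libraries and 5.92, 3.46 and 2.21 CPM in the CD8 libraries, a 41.9-fold ratio of means (log2 difference -5.41 ± 0.36, adjusted p = 1.2e-09). Runx3 was 344, 414 and 459.7 CPM in the CD8 libraries and 116, 133 and 165 CPM in the CD4 libraries, 2.94-fold higher in CD8 (log2 difference 1.56 ± 0.17, adjusted p = 4.7e-07). The CD4 and CD8 libraries did not overlap for either factor, and Runx3 was read at over 100 CPM in every CD4 library while Zbtb7b stayed under 6 CPM in every CD8 library. Runx1, the related factor, was higher in CD4 (575, 580.4 and 704 CPM in the CD4 libraries and 219.8, 237 and 258 CPM in the CD8 libraries), and so was Gata3, a zinc finger factor of CD4 and type 2 helper cells (112, 125 and 149 CPM in the CD4 libraries and 32.7, 31.6 and 35.7 CPM in the CD8 libraries). Tox, a factor needed for CD4 lineage cells in the thymus, was also higher in CD4 (log2 difference -0.86 ± 0.19, adjusted p = 0.0017). The chromatin organizer Satb1 and the Wnt-pathway factor Lef1 were higher in CD8, with log2 differences of 1.01 ± 0.15 and 0.95 ± 0.22. Tcf7, which encodes the partner factor TCF1, was called higher in CD8 (log2 difference 0.68 ± 0.20, adjusted p = 0.019), but not without CD4 replicate 1 (adjusted p = 0.057), CD4 replicate 2 (0.057) or CD8 replicate 2 (0.065). Cbfb, the common partner of the Runx proteins, and Bcl11b, a factor of all T cells, did not pass the test, with log2 differences of -0.01 ± 0.19 and -0.37 ± 0.16.

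A pair of surface genes followed the lineages closely. Cd40lg, the ligand by which helper cells license B cells and dendritic cells, was 57.8, 58.7 and 47.9 CPM in the CD4 libraries and 1.63, 0.561 and 1.54 CPM in the CD8 libraries, 44.1-fold higher in CD4 (adjusted p = 1.9e-10). Crtam, a receptor of activated CD8 and NK cells, was 96.4, 88.1 and 76.4 CPM in the CD8 libraries and 8.51, 6.79 and 6.83 CPM in the CD4 libraries, 11.8-fold higher in CD8 (adjusted p = 4.0e-11). For both genes the 3 libraries of a cell type lay within a narrow range and far from those of the other.

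**Figure D1:**
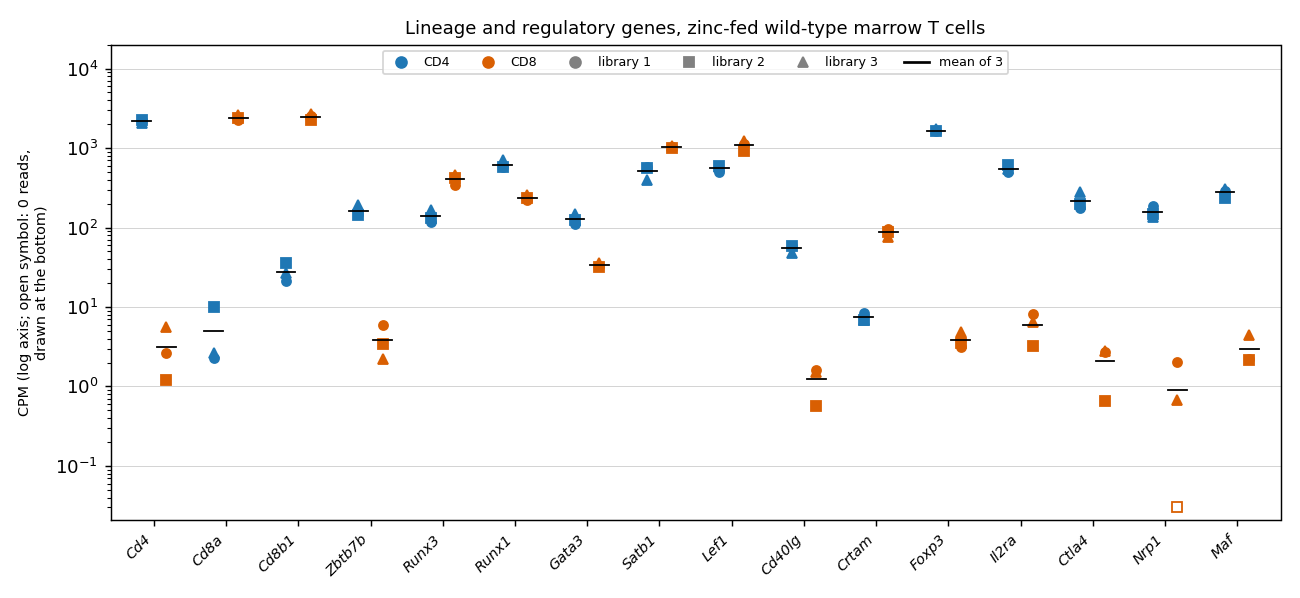
CPM on a log axis of lineage and regulatory T cell genes in the 3 CD4 (blue) and 3 CD8 (orange) libraries of zinc-fed wild type, with bars at the means and symbols by library. Cd8a, Cd8b1, Runx3, Satb1, Lef1 and Crtam lie higher in CD8 and the other genes higher in CD4, with no overlap in any.

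The promoters of the opposing factors are shown because Runx3 and Zbtb7b differ in opposite directions, and that of Prf1, the gene of the pore-forming protein perforin, because it was higher in CD8 (below). Each stretch is the 250 bases before a start site in RefSeq's annotation of GRCm38.p6, given 5′ to 3′ on the gene's strand, with the Runx motif TGTGGT, or its opposite strand ACCACA, in capitals. Zbtb7b and Runx3 each have another start in that table whose 250 bases hold no match. Shown are chr3:89387672-89387921 on the minus strand, chr4:135120395-135120644 on the plus strand and chr10:61297586-61297835 on the plus strand.
Zbtb7b: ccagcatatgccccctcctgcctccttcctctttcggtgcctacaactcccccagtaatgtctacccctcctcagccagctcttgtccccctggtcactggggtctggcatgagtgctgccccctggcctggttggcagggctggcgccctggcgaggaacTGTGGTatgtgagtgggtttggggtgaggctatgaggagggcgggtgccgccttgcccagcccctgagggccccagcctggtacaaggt
Runx3: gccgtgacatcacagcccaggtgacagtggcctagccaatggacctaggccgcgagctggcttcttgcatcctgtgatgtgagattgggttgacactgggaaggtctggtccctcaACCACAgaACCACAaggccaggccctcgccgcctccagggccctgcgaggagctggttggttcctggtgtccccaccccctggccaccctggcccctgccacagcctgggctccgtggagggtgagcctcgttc
Prf1: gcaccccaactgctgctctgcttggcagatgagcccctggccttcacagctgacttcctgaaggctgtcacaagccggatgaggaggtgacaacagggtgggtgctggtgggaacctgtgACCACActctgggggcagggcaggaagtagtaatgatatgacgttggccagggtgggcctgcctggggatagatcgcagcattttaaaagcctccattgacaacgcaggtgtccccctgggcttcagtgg
The Runx3 stretch holds 2 matches and the others 1 each. Of the 374 genes called and at least 2-fold higher in CD8, 290 matched the promoter table with 384 promoters, and 56 of these (14.6%) held the Runx motif. Of the 1033 genes called and at least 2-fold higher in CD4, 755 matched with 978 promoters, and 117 (12%) held it. The shares were 11.2% over the 10999 promoters of the genes tested and 14% over all 32851 promoters of the table. The GATA motif AGATAA, searched likewise on both strands, was in 7.29% of the promoters higher in CD8, 8.38% of those higher in CD4 and 6.24% of those tested. The ETS motif CAGGAAGT was in 3.91%, 2.45% and 2.77% of the same sets. A match is a string of letters in this window and was not tested as a binding site.

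Over all genes tested 2511 (22.2%) were called, 1050 higher in CD8 and 1461 higher in CD4. With a difference of at least 2-fold the counts were 374 (3.31%) for CD8 and 1033 (9.13%) for CD4. All 3 CD8 libraries lay above all 3 CD4 libraries for 1836 genes (16.2%), and the reverse held for 2127 genes (18.8%). Without CD4 replicate 3 the calls were 927 and 1276. By these counts more of the large differences lay on the CD4 side, as the plot of all genes shows. Genes nearly without reads in a cell type could pass the filter through the other type alone, which fixes a large difference. The 2-fold counts are no separate evidence for such genes. With a minimum mean of 5 CPM, calls of any size were 894 higher in CD8 and 1118 higher in CD4 of 8580 tested. The 2-fold counts were not repeated with that filter.

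**Figure D2:**
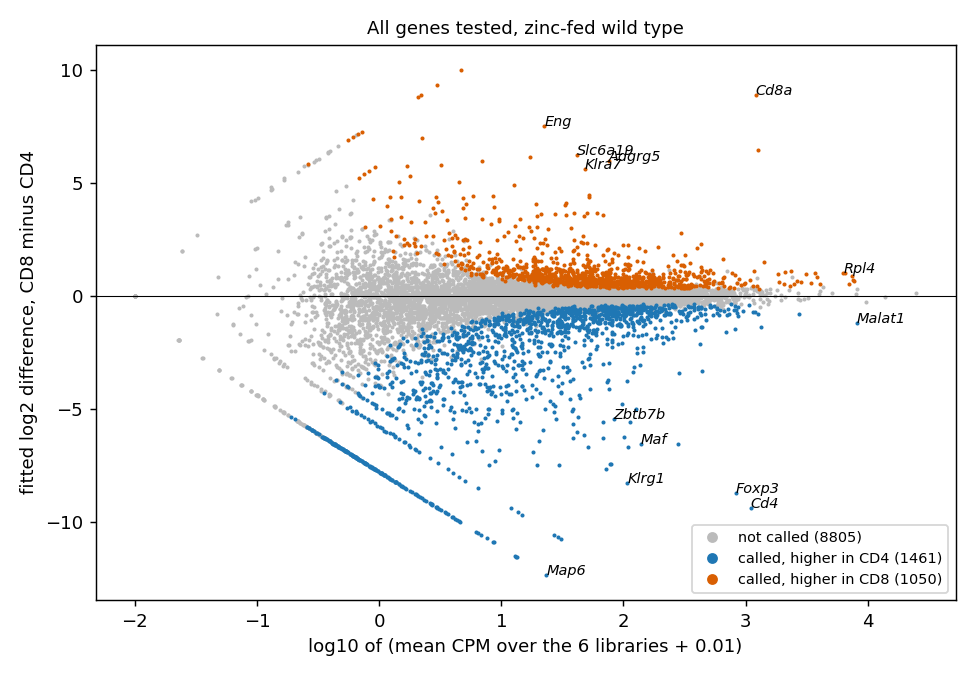
Fitted log2 difference (CD8 minus CD4) of each gene tested against log10 of its mean CPM over the 6 libraries plus 0.01. Orange and blue points are called genes (1050 higher in CD8, 1461 higher in CD4) and the straight lower edge is made of genes with 0 reads in every CD8 library.

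Outside the gene lists and among genes of at least 10 CPM in the higher cell type, Eng, Slc6a19, Bend4, Trim30c and Rcn3 led the CD8 side, followed by Fcgrt and others. Eng, which encodes the TGF-beta coreceptor endoglin, was 39, 51.5 and 43.3 CPM in the CD8 libraries and 0.152, 0 and 0.55 CPM in the CD4 libraries (fitted log2 difference 7.53 ± 0.77). Slc6a19, a neutral amino acid transporter best known from gut and kidney, was 105, 64.3 and 77.2 CPM in the CD8 libraries and 0.076, 1.39 and 1.73 CPM in the CD4 libraries, 77-fold higher in CD8. Fcgrt, the neonatal Fc receptor that also carries albumin, was 100.1, 125 and 75.2 CPM in the CD8 libraries and 5.47, 4.63 and 4.08 CPM in the CD4 libraries, 21.2-fold higher, and Rcn3, its neighbour on chromosome 7 and a calcium-binding protein of the endoplasmic reticulum, 22.4-fold higher. In each of these genes the 3 CD8 libraries stood far above the 3 CD4 libraries. The rest of the 10 with the largest differences outside the lists were Plekha6, Nfam1, Drc1 and Ccdc102a, with log2 differences of 4.07 to 4.44. Some listed genes had larger log2 differences than Trim30c. Among them were Cd8a (8.91 ± 0.72), Cd8b1 (6.47 ± 0.20), Adgrg5 (5.96 ± 0.26) and Klra7 (5.64).

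On the CD4 side 7 of the 10 leading genes outside the lists had no reads in any CD8 library, so their fitted log2 values depend on the prior count and are not given. Map6, a microtubule-stabilizing protein, was 53.7, 40.1 and 46.6 CPM in the CD4 libraries and 0 in each CD8 library, at least 582-fold higher (3 counts pooled over the CD8 libraries as the limit). Fam160a1 was at least 322-fold and Dscam, an adhesion molecule of neurons, at least 190.1-fold higher by the same limit. Plagl1, Clip3, Bcam and Cass4 were also at 0 in CD8, while Dst, Cybb (the phagocyte oxidase subunit) and Penk (preproenkephalin) had 1 read over the CD8 libraries.

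Of the most abundant genes outside the lists that differed by at least 2-fold, several higher in CD8 serve translation. Rpl4, a large-subunit ribosomal protein, was 8030.3, 7871 and 9356 CPM in the CD8 libraries and 4004, 4747 and 3715 CPM in the CD4 libraries (log2 difference 1.02 ± 0.12), and Eef1b2 and Npm1 had log2 differences of 1.12 ± 0.13 and 1.12 ± 0.13. Rps3 had a log2 difference of 1.03 ± 0.23, and 0.68 without CD8 replicate 2. Because these were seen to lead, all ribosomal protein genes tested were counted by symbol, a choice made after their values were seen. Of 21 such genes 11 were higher in CD8 and 0 higher in CD4. Their median log2 difference was 0.64 in wild type, 0.81 in pMT-10 mice without zinc and 0.78 in zinc-fed pMT-10 mice. The tubulin Tubb5, the interferon-induced Epsti1 and the small GTPase Arl4c were among the other abundant CD8 genes, with log2 differences of 1.05 ± 0.11, 1.5 ± 0.13 and 1.66 ± 0.14. Abundant genes outside the lists that were higher in CD4 included the nuclear RNA Malat1 (13641, 9933 and 10144 CPM in the CD4 libraries and 6399, 6206 and 2225 CPM in the CD8 libraries), Serinc3, Itm2c, Tspan32, Inpp4b, Ephx1, Pkp3 and Rab8b, with log2 differences from -2.13 to -1.02.

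Treg genes had the largest share of members called among the 24 functional lists. All lists were chosen with earlier results of these data known, so this ranking is descriptive. Of 20 listed and tested, 19 (95%) were higher in CD4, against 12.9% over all genes tested. The list had a median log2 difference of -4.87. Foxp3 was 1618, 1634 and 1716 CPM in the CD4 libraries and 3.17, 3.55 and 4.89 CPM in the CD8 libraries, 428-fold higher in CD4 (log2 difference -8.72 ± 0.52, adjusted p = 4.0e-09). Il2ra, the high-affinity interleukin-2 receptor chain CD25, was 499.7, 606 and 548 CPM in the CD4 libraries and 8.07, 3.27 and 6.56 CPM in the CD8 libraries. Ctla4, the inhibitory receptor by which Treg take CD80 and CD86 from other cells, was 174, 196 and 276 CPM in the CD4 libraries and 2.75, 0.654 and 2.81 CPM in the CD8 libraries. The CD4 libraries lay close to one another for these genes, and each CD8 library held under 10 CPM. Other members of the programme were higher in CD4 too: the Ikaros-family factors Ikzf2 (Helios) and Ikzf4 (Eos) had log2 differences of -4.76 ± 0.32 and -4.98 ± 0.43, and Nrp1 (neuropilin, a surface marker of thymus-derived Treg) one of -7.41 ± 0.67. Lrrc32, the docking receptor of latent TGF-beta, was 51, 57.7 and 65 CPM in CD4, with 1 read over the CD8 libraries. Ebi3, a subunit of interleukin-35, was 14.1, 16.9 and 20.9 CPM in CD4 and 0 in each CD8 library, at least 214-fold higher. The exception was Itgae, the CD103 integrin chain, which was called higher in CD8, at 89.1, 107 and 84.5 CPM in the CD8 libraries and 63.8, 72.3 and 64.8 CPM in the CD4 libraries (log2 difference 0.48 ± 0.17, adjusted p = 0.046). That call was lost without any of 5 of the 6 libraries, with adjusted p of 0.13, 0.062 and 0.11 without CD4 replicates 1, 2 and 3 and 0.065 and 0.19 without CD8 replicates 1 and 2, so the count higher in CD8 fell from 1 to 0. In sorted bulk samples more cells of a kind and more RNA per cell cannot be told apart.

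Helper and innate-like T cell genes that passed the filter on low counts were nearly all on the CD4 side. Of 22 on the panel 14 passed it, with a median log2 difference of -4.11. Of these 13 (92.9%) were higher in CD4 and 0 in CD8, against 12.9% and 9.28% over all genes tested. A gene near 0 reads in CD8 could pass the filter through CD4 libraries alone, which fixes its direction. The count is therefore no separate evidence for such genes, and fewer were called with a minimum mean of 5 CPM (below). Maf, a factor of follicular helper, Th17 and interleukin-10-producing cells, was 287, 233 and 307 CPM in the CD4 libraries and 2.23, 2.15 and 4.42 CPM in the CD8 libraries, 94-fold higher in CD4. Rora, shared by Th17 and innate-like cells, was 80.9, 79.2 and 108 CPM in the CD4 libraries and 11.5, 10.8 and 16.3 CPM in the CD8 libraries. Il1rl1, the interleukin-33 receptor ST2 of type 2 cells and tissue Treg, was 60.6, 77.8 and 44.8 CPM in CD4, with 1 read over the CD8 libraries. Maf and Rora kept the groups well apart, and Il1rl1 was nearly confined to the CD4 libraries. Zbtb16, the PLZF factor of natural killer T cells, was 2.36, 3.01 and 9.58 CPM in the CD4 libraries and 0, 0.654 and 0 CPM in the CD8 libraries. Its log2 difference was -4.59 ± 1.19, and -9.10 without CD8 replicate 2, the only CD8 library with reads; DESeq2 did not call it (adjusted p = 0.058 in DESeq2). Il4, Il5, Il13, Il17a, Il17f, Il21 and Il22, the signature cytokines, were either under the filter or, for Il4 and Il21, at 0 in CD8 and under 10 CPM in CD4. Tbx21, the T-bet factor of type 1 cells, did not pass (log2 difference 0.54 ± 0.21, adjusted p = 0.066). It was called higher in CD8 without CD8 replicate 1 (0.78, adjusted p = 0.0057) or CD4 replicate 3 (0.74, adjusted p = 0.024). In pMT-10 mice without zinc it was called higher in CD4 (-0.97, adjusted p = 0.0016). It was not called in zinc-fed pMT-10 mice (0.09, adjusted p = 0.78).

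Receptors that give a second signal or a brake at the synapse were higher in CD4 or not called. Of 24 tested 17 (70.8%) were higher in CD4 and 0 in CD8, against 12.9% and 9.28% over all genes tested. The median log2 difference of the list was -1.87. Cd28, the main costimulatory receptor, was 516, 562 and 606 CPM in the CD4 libraries and 219, 173 and 216 CPM in the CD8 libraries, and its relative Icos had a log2 difference of -2.04 ± 0.19. Pdcd1, the PD-1 receptor, was 241, 167 and 323 CPM in the CD4 libraries and 14.2, 2.8 and 5.82 CPM in the CD8 libraries. Both CD28-family receptors were 2-fold or more above the CD8 libraries in each CD4 library. The TNF-receptor family members Tnfrsf4 (OX40), Tnfrsf9 (4-1BB) and Tnfrsf18 (GITR) had log2 differences of -6.26 ± 0.32, -3.14 ± 0.22 and -1.71 ± 0.14. Tigit, an inhibitory receptor for CD155, had one of -5.36 ± 0.37, and Lag3, a CD4-like receptor for MHC class II, one of -3.43 ± 0.71. Ctla4, Tigit, Tnfrsf4 and Tnfrsf18 are members of the Treg list as well, so the lists overlap by 4 genes. The SLAM-family receptor Ly9 and the adaptor Sh2d2a did not pass the test, with log2 differences of 0.13 ± 0.14 and 0.13 ± 0.18.

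**Figure D3:**
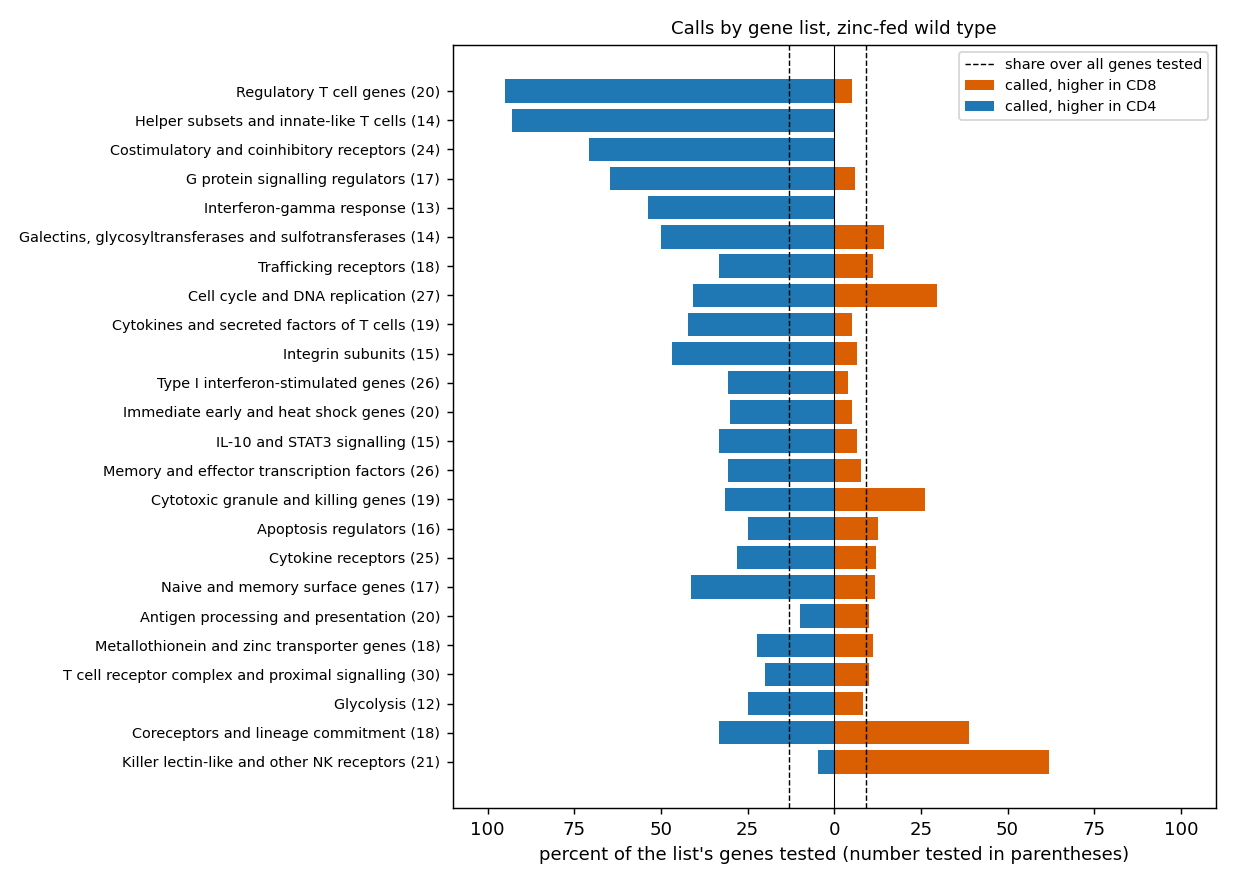
Percent of each list's tested genes called higher in CD8 (orange, to the right) and higher in CD4 (blue, to the left), ordered by the list's median log2 difference; dashed lines are the shares over all genes tested (9.28% and 12.9%). Treg and helper genes lie furthest to the CD4 side (19 of 20 and 13 of 14) and NK receptors furthest to the CD8 side (13 of 21). A gene nearly without reads in a cell type could pass the filter through the other type alone, which fixes its direction. Lists were chosen with earlier results of these data known.

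Killing genes split between the cell types. Of 19 tested 5 (26.3%) were higher in CD8 and 6 (31.6%) in CD4, against 9.28% and 12.9% over all genes tested. The median log2 difference of the list was -0.11. Prf1 was 66.2, 47.5 and 75.6 CPM in the CD8 libraries and 9.5, 19.7 and 16.6 CPM in the CD4 libraries, 4.14-fold higher in CD8 (log2 difference 2.05 ± 0.33, adjusted p = 0.00011). Gzmm, an NK-type granzyme, was 22.9, 32.4 and 22.6 CPM in the CD8 libraries and 1.75, 3.47 and 2.12 CPM in the CD4 libraries (log2 difference 3.40 ± 0.35). Nkg7, a granule membrane protein, was 636, 809 and 708 CPM in the CD8 libraries and 73.1, 106 and 257 CPM in the CD4 libraries (log2 difference 2.30 ± 0.33). In all of these the CD4 libraries lay below the CD8 libraries, and without CD4 replicate 3 the Nkg7 log2 difference was 2.997. The cysteine protease Ctsw and its relative inhibitor Cst7 (cystatin F) had log2 differences of 2.15 ± 0.20 and 1.42 ± 0.15.

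Granzyme B, the serine protease that starts apoptosis in target cells, went the other way. Gzmb was 48.3, 90.2 and 159 CPM in the CD4 libraries and 14, 9.72 and 34.7 CPM in the CD8 libraries (log2 difference -2.33 ± 0.47, adjusted p = 0.0018). Gzmk was 19.5, 27.9 and 108 CPM in the CD4 libraries and 8.58, 5.98 and 12 CPM in the CD8 libraries (log2 difference -2.53 ± 0.66, adjusted p = 0.013). Ifng, the interferon gamma gene, was 30.6, 41.4 and 76.7 CPM in the CD4 libraries and 18.8, 5.79 and 8.97 CPM in the CD8 libraries (log2 difference -2.15 ± 0.46, adjusted p = 0.0027). For these genes, for Ccl5 (311, 509 and 1262 CPM in the CD4 libraries and 630.0, 936 and 793 CPM in the CD8 libraries) and for Nkg7, the CD4 libraries stood in the same order as for Xist, with replicate 3 highest and replicate 1 lowest. In zinc-fed pMT-10 CD4 cells the mean levels were 1596 ± 253 CPM for Gzmb, 1090.0 ± 358 CPM for Gzmk, 662 ± 178 CPM for Ifng and 13565 ± 4372 CPM for Ccl5 (SD, n = 3). Without CD4 replicate 3, the Gzmb log2 difference was -1.81 (adjusted p = 0.0084) and that of Ifng -1.68 (adjusted p = 0.014). That of Gzmk moved to -1.41 and was no longer called (adjusted p = 0.065), nor was it without CD8 replicate 2 (adjusted p = 0.066). Ccl5, a chemokine of memory and effector cells, was not called over all libraries (log2 difference 0.18 ± 0.39, adjusted p = 0.80) and was called higher in CD8 without CD4 replicate 3 (0.94, adjusted p = 0.035). The part in these levels of whatever brought the Xist reads was not tested. In pMT-10 mice without zinc the log2 difference was -1.84 for Gzmb (adjusted p = 0.011), -2.04 for Ifng (adjusted p = 0.0040) and -0.93 for Gzmk (adjusted p = 0.36). The granule proteoglycan Srgn, the small GTPase Rab27a and the syntaxin Stx11, which serve granule release in many blood cells, were also higher in CD4, with log2 differences of -0.85 ± 0.21, -0.77 ± 0.16 and -4.17 ± 0.63. The remaining call, Tnfsf10 (TRAIL), was lost without CD4 replicate 2 (adjusted p = 0.050) or 3 (0.16) or CD8 replicate 2 (0.11) or 3 (0.089).

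**Figure D4:**
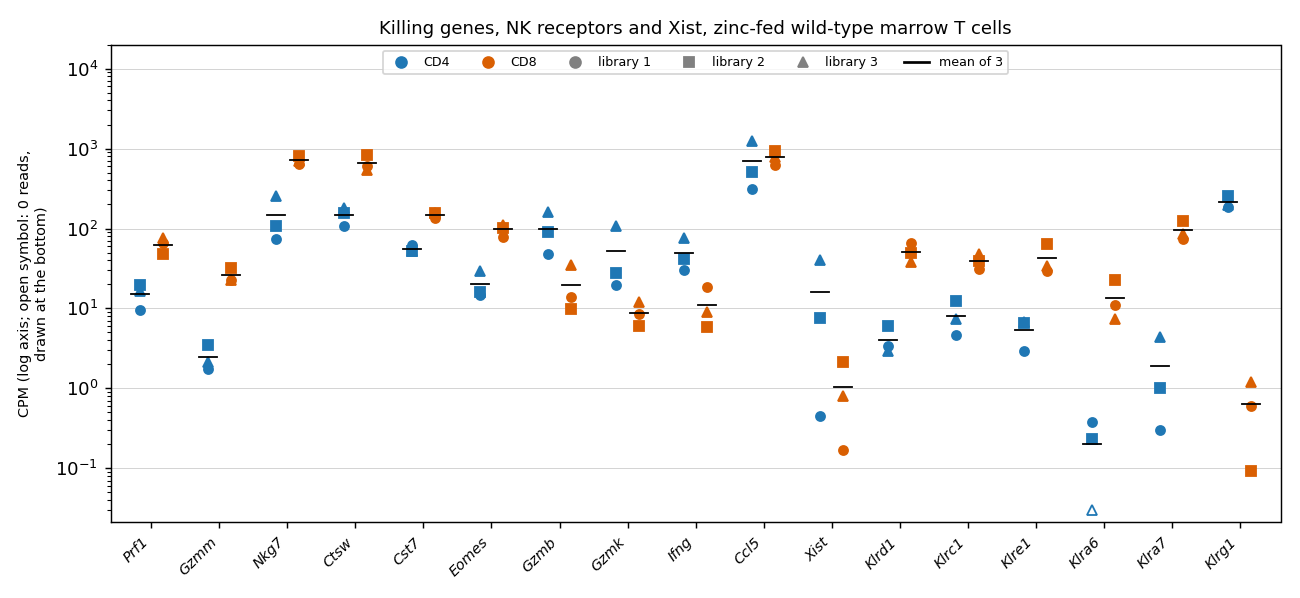
CPM on a log axis of killing genes, NK receptors and Xist in the 3 CD4 (blue) and 3 CD8 (orange) libraries, with bars at the means; an open symbol is a library with 0 reads. CD4 replicate 3 (triangle) is the highest CD4 library for Nkg7, Gzmb, Gzmk, Ifng, Ccl5 and Xist, and Klrg1 is the NK receptor that lies higher in CD4.

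Receptors of natural killer (NK) cells were the functional list with the largest share on the CD8 side. This list too was chosen with earlier results of these data known. Of 22 on the panel 21 were tested, with a median log2 difference of 1.5. Of these 13 (61.9%) were higher in CD8 and 1 (4.76%) in CD4, against 9.28% and 12.9% over all genes tested. Klrd1 (CD94), the chain that pairs with the NKG2 receptors for Qa-1, was 66.1, 49.3 and 38.6 CPM in the CD8 libraries and 3.34, 5.94 and 2.91 CPM in the CD4 libraries, 12.6-fold higher in CD8 (adjusted p = 2.2e-09). Its partners Klrc1 and Klrc2 had log2 differences of 2.28 ± 0.33 and 2.43 ± 0.38, and Klrk1 (NKG2D), which binds stress-induced ligands, one of 1.5 ± 0.33. The Ly49 receptors for MHC class I were higher in CD8 as well. Klra7 was 74.1, 123 and 86.2 CPM in the CD8 libraries and 0.304, 1.003 and 4.4 CPM in the CD4 libraries and Klra6 was 11, 22.6 and 7.3 CPM in the CD8 libraries and 0.38, 0.232 and 0 CPM in the CD4 libraries. The Ly49 genes are close copies, so reads may be shared between them. Klrg1, a cadherin-binding receptor of effector CD8 cells, NK cells and mature Treg, was the exception, at 185, 258 and 198 CPM in the CD4 libraries and 0.601, 0.0935 and 1.2 CPM in the CD8 libraries, 338-fold higher in CD4 (log2 difference -8.26 ± 0.64, adjusted p = 6.4e-08). The count higher in CD8 was 8 without CD8 replicate 2, the library highest for Klra1, Klra3, Klra6, Klra7, Klra9 and Klre1, and the count higher in CD4 was 2 without CD4 replicate 1. The 8 NK cell markers, none of them at 0 in all 6 libraries, summed to 64.9 to 97.2 CPM in the CD4 libraries and 133 to 185 CPM in the CD8 libraries, with Eomes making up 47.7% of the sum. Their part in the NK receptor calls was not tested. In pMT-10 mice without zinc Klrc1 (log2 difference 0.44, adjusted p = 0.35) and Klrk1 (-0.23, adjusted p = 0.67) were not called. Klrd1 was called higher in CD8 there (2.88, adjusted p = 2.4e-08). The median log2 difference of the list was 0.53 in those mice and 3.17 in zinc-fed pMT-10 mice.

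Memory and effector factors were higher in CD4 more often than in CD8. Of 27 on the panel 26 were tested, with a median log2 difference of -0.19. Of these 2 (7.69%) were higher in CD8 and 8 (30.8%) in CD4, against 9.28% and 12.9% over all genes tested. Eomes, the T-box factor of memory CD8 and NK cells, was 78.9, 102 and 111 CPM in the CD8 libraries and 14.7, 16.1 and 29.8 CPM in the CD4 libraries, 4.82-fold higher in CD8 (adjusted p = 3.5e-06). Prdm1, which encodes Blimp-1, was 59.3, 48.4 and 115 CPM in the CD4 libraries and 2.57, 1.5 and 2.48 CPM in the CD8 libraries (log2 difference -5.06 ± 0.54). Id2, an inhibitor of E proteins that marks effector cells, had a log2 difference of -1.13 ± 0.18, and its relative Id3 did not pass (-0.22 ± 0.22, adjusted p = 0.54). Eomes thus lay on the CD8 side and the effector factors Prdm1 and Id2 on the CD4 side. Irf4, Batf and Nr4a1, which follow T cell receptor signals, and Bhlhe40, a cytokine-control factor, were higher in CD4, with log2 differences of -2.39 ± 0.21, -1.05 ± 0.20, -1.36 ± 0.24 and -3.78 ± 0.42. Klf2, a quiescence and egress factor, made up the other CD8 call, which was lost without any of 5 libraries: the adjusted p was 0.12, 0.073 and 0.093 without CD4 replicates 1, 2 and 3 and 0.14 and 0.092 without CD8 replicates 2 and 3. The count higher in CD8 was then 1 without CD4 replicate 1, CD4 replicate 2 or CD8 replicate 3.

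Surface genes used to part naive from memory cells gave 2 calls higher in CD8 and 7 higher in CD4 of 17 tested, with a median log2 difference of 0.00. The shares were 11.8% and 41.2%, against 9.28% and 12.9% over all genes tested. Cd44, the hyaluronan receptor that rises on antigen-experienced cells, was 370.2, 388 and 374 CPM in the CD4 libraries and 125, 140.1 and 175 CPM in the CD8 libraries (log2 difference -1.36 ± 0.19, adjusted p = 1.3e-05). Ly6a (Sca-1) was 518, 455 and 600.2 CPM in the CD4 libraries and 46.9, 43.6 and 58.2 CPM in the CD8 libraries, 10.6-fold higher in CD4. Itgb1, the beta-1 integrin chain, was 383, 386 and 431 CPM in the CD4 libraries and 104, 119.7 and 112 CPM in the CD8 libraries. These memory-linked genes were higher in every CD4 library than in any CD8 library. Ccr7, which guides cells to lymph nodes, was 885, 1141 and 678 CPM in the CD4 libraries and 1946, 1382 and 1469 CPM in the CD8 libraries. It was not called over the 18 libraries (adjusted p = 0.21), although the CD8 libraries lay above the CD4 libraries. In an edgeR fit of the 6 wild-type libraries alone it was called higher in CD8 (adjusted p = 0.0078), and so it was with no filter on low counts (3.1e-06). The count higher in CD8 was 4 in the first of these fits and 5 in the second. Il7r, the interleukin-7 receptor of naive and memory cells, was 1112, 1055 and 902 CPM in the CD4 libraries and 1094, 894 and 1086 CPM in the CD8 libraries (log2 difference 0.00 ± 0.25). Dpp4 and Cd55 were the CD8 calls, with log2 differences of 1.14 ± 0.19 and 0.80 ± 0.18.

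Cytokine genes were higher in CD4 for 8 of 19 tested and higher in CD8 for 1, Xcl1, with a median log2 difference of -0.65. The shares were 42.1% and 5.26%, against 12.9% and 9.28% over all genes tested. Il10, the cytokine that the pMT-10 transgene encodes, was 7.14, 3.01 and 8.25 CPM in the CD4 libraries and 0 in each CD8 library, at least 76.2-fold higher in CD4. Csf1, the macrophage growth factor, was 92, 85.8 and 102 CPM in the CD4 libraries and 0.515, 0.935 and 2.34 CPM in the CD8 libraries, 73.7-fold higher in CD4. Tnfsf11 (RANKL), which drives osteoclast formation in bone, was 34.7, 28.5 and 38.5 CPM in the CD4 libraries and 0.429, 2.71 and 1.54 CPM in the CD8 libraries (log2 difference -4.45 ± 0.53). The CD4 and CD8 libraries did not overlap for Csf1 or Tnfsf11. Xcl1, which draws cross-presenting dendritic cells, was 54.2, 102 and 67.5 CPM in the CD8 libraries and 14.3, 32.1 and 36.3 CPM in the CD4 libraries (log2 difference 1.43 ± 0.38, adjusted p = 0.011) and was not called without CD8 replicate 2 (adjusted p = 0.066), which left 0. Without CD4 replicate 3 the count was 2. Xcl1 was not called in pMT-10 mice without zinc (log2 difference -0.06, adjusted p = 0.94) or with zinc (0.16, adjusted p = 0.79).

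Of 25 cytokine receptors 3 (12%) were higher in CD8 and 7 (28%) in CD4, against 9.28% and 12.9% over all genes tested. The median log2 difference of the list was 0.00. Il10ra, the ligand-binding chain of the interleukin-10 receptor, was 402, 306 and 383 CPM in the CD4 libraries and 116, 67.1 and 114 CPM in the CD8 libraries (log2 difference -1.88 ± 0.21), whereas the shared chain Il10rb was higher in CD8, at 460.1, 404 and 448 CPM in the CD8 libraries and 307, 309 and 340.3 CPM in the CD4 libraries (log2 difference 0.46 ± 0.12). The chains of 1 receptor therefore differed in opposite directions. Il9r was 23, 26.5 and 30.2 CPM in CD4 and 0 in each CD8 library, at least 330.0-fold higher. Il12rb1 and Tnfrsf1b (TNFR2, a Treg-enriched receptor) had log2 differences of -2.14 ± 0.23 and -1.81 ± 0.17. Il2rb, the interleukin-2 and interleukin-15 receptor chain, was 1108, 1282 and 1716 CPM in the CD4 libraries and 1038, 1302 and 1466 CPM in the CD8 libraries and was not called (adjusted p = 0.71). The count higher in CD8 was 1 without CD4 replicate 1. In the interleukin-10 and STAT3 list 5 of 15 were higher in CD4 and 1 in CD8 (median log2 difference -0.27), with the kinase Pim1 at 1240.4, 1163 and 1151 CPM in the CD4 libraries and 421, 452 and 443 CPM in the CD8 libraries and Stat3 itself not called (-0.26 ± 0.15).

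Trafficking receptors gave 2 calls higher in CD8 and 6 higher in CD4 of 18 tested, with a median log2 difference of -0.66. The shares were 11.1% and 33.3%, against 9.28% and 12.9% over all genes tested. The count higher in CD8 was 4 in the fit of the wild-type libraries alone and with no filter, Ccr7 among them. Ccr9, the receptor of the gut chemokine CCL25, was 87.6, 53.7 and 79.6 CPM in the CD8 libraries and 5.32, 7.1 and 4.71 CPM in the CD4 libraries, 12.9-fold higher in CD8 (adjusted p = 2.5e-07). Ccr4, which guides Treg and type 2 cells to skin and other tissues, was 112, 156 and 161 CPM in the CD4 libraries and 0.429, 1.12 and 0.602 CPM in the CD8 libraries, 199-fold higher in CD4. Ccr8, another Treg receptor, was 12.8, 12.7 and 31.3 CPM in the CD4 libraries and 0.172, 0.187 and 0.134 CPM in the CD8 libraries. Ccr9 and the Ccr4 and Ccr8 pair thus pointed to opposite cell types, each without overlap. Ccr6, the CCL20 receptor, was 113, 108 and 84.4 CPM in the CD4 libraries and 3.003, 0.0935 and 0 CPM in the CD8 libraries (log2 difference -6.68 ± 1.13, and -11.04 without CD8 replicate 1, which held nearly all of the CD8 reads). Cxcr3, the receptor of interferon-induced chemokines, was called higher in CD4 (log2 difference -0.68 ± 0.17, adjusted p = 0.0068), but not without CD4 replicate 3 (adjusted p = 0.063). Cxcr4, which holds cells in marrow, and Cxcr6 were not called, with log2 differences of -0.02 ± 0.19 and 0.08 ± 0.32. Of 15 integrin subunits 7 (46.7%) were higher in CD4 and 1 (6.67%) in CD8, with a median log2 difference of -0.64. The CD8 call was Itgae, which left 0 without CD4 replicate 1, 2 or 3 or CD8 replicate 1 or 2. Itgb8, whose dimer with Itgav releases active TGF-beta, was 56.5, 52.4 and 54.2 CPM in the CD4 libraries and 0, 0 and 0.0669 CPM in the CD8 libraries, and Itgav had a log2 difference of -1.37 ± 0.26.

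Of 30 genes tested for the T cell receptor complex and its proximal signalling 3 (10%) were higher in CD8 and 6 (20%) in CD4, against 9.28% and 12.9% over all genes tested (median log2 difference 0.07), and without CD4 replicate 3 the count in CD8 was 5. Thy1 was 5101, 4283 and 5559 CPM in the CD8 libraries and 2818, 2592 and 2849 CPM in the CD4 libraries, and the signalling gene Themis was higher in CD8 too, with a log2 difference of 0.86 ± 0.18. Cd5 and Cd6, which dampen receptor signals, and the factor Nfatc1 were higher in CD4, with log2 differences of -1.58 ± 0.26, -0.83 ± 0.15 and -0.79 ± 0.15. Cd3g, Cd247, Lck, Zap70 and Lat were not called, and their log2 differences lay from -0.02 to 0.29. Antigen presentation genes gave 2 calls (10%) in each direction of 20 tested, near the shares over all genes tested. B2m and H2-K1 were not called (0.13 ± 0.16 and -0.25 ± 0.12). Without single libraries these counts were 1 to 3: without CD4 replicate 2 or CD8 replicate 2 the count in CD8 was 1, and without CD4 replicate 1, CD4 replicate 3 or CD8 replicate 3 the count in CD4 was 1.

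Interferon-gamma response genes were higher in CD4 for 7 of 13 tested (53.8%) and higher in CD8 for 0 (median log2 difference -0.75). Over all genes tested the shares were 12.9% and 9.28%. The guanylate-binding protein gene Gbp3 was 142, 159 and 159.9 CPM in the CD4 libraries and 42.7, 52 and 42.3 CPM in the CD8 libraries (log2 difference -1.75 ± 0.13), and Gbp7 had a log2 difference of -0.93 ± 0.14. Cxcl10, a ligand of Cxcr3, was 76.1, 30.6 and 53 CPM in the CD4 libraries and 2.32, 3.18 and 0.268 CPM in the CD8 libraries, 27.7-fold higher in CD4. The GTPases and the chemokine were thus higher in the same libraries. Irf1 did not pass (-0.38 ± 0.14, adjusted p = 0.050). Of 26 type I interferon-stimulated genes 8 (30.8%) were higher in CD4 and 1 (3.85%), Oas3, in CD8 (median log2 difference -0.39). The Oas3 call (adjusted p = 0.034) was lost without CD4 replicate 1 (0.080), 2 (0.089) or 3 (0.072) or CD8 replicate 2 (0.065), which left 0, and without CD8 replicate 3 (0.11), while the count was 2 without CD8 replicate 1. The exonuclease gene Isg20 was higher in CD4, with a log2 difference of -1.49 ± 0.24.

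Cell cycle genes were called in both directions. Of 27 tested 8 (29.6%) were higher in CD8 and 11 (40.7%) in CD4, against 9.28% and 12.9% over all genes tested. The median log2 difference of the list was -0.66. The counts were 5 in CD8 without CD8 replicate 3 and 7 in CD4 without CD4 replicate 3. Mki67, the proliferation antigen, was 15.4, 13.6 and 18.2 CPM in the CD4 libraries and 0.429, 2.71 and 2.81 CPM in the CD8 libraries (log2 difference -2.97 ± 0.44), and the mitotic genes Birc5, Top2a and Cenpa had log2 differences of -3.04 ± 0.43, -1.08 ± 0.27 and -1.30 ± 0.20. Cdkn1a, the p21 inhibitor, was also higher in CD4 (-3.90 ± 0.69). The nucleotide synthesis gene Tyms (-1.21 ± 0.37) was called higher in CD4, but not without CD4 replicate 1 (adjusted p = 0.070), CD8 replicate 2 (0.094) or CD8 replicate 3 (0.089). Rrm2, of the same pathway (-1.58 ± 0.44), was not called without CD8 replicate 1 (adjusted p = 0.062), CD4 replicate 3 (0.052) or CD8 replicate 3 (0.065). The G1 cyclin and kinase genes Ccnd3, Ccne1 and Cdk4 were higher in CD8, with log2 differences of 0.96 ± 0.18, 1.42 ± 0.33 and 0.89 ± 0.18, and the replication licensing genes Mcm3 and Mcm7 of 1.14 ± 0.18 and 0.64 ± 0.15. The mitotic genes Cdk1 and Ccnb2 were called higher in CD4 over all libraries (adjusted p = 0.044 and 0.016). Cdk1 was not called without any of 5 libraries, all but CD4 replicate 1, with adjusted p of 0.054 to 0.19. Ccnb2 was not called without CD8 replicate 1 (adjusted p = 0.073) or CD4 replicate 3, where its log2 difference moved from -1.68 to -0.87 (adjusted p = 0.20).

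Among 16 apoptosis regulators 2 (12.5%) were higher in CD8 and 4 (25%) in CD4 (median log2 difference -0.09). Over all genes tested the shares were 9.28% and 12.9%. The count in CD8 was 1 without CD4 replicate 1 or 2 or CD8 replicate 2 or 3. The count in CD4 was 2 without CD8 replicate 1 or CD4 replicate 3. Bcl2, the survival factor, was 96.6, 156 and 106 CPM in the CD8 libraries and 42.1, 43.8 and 40.3 CPM in the CD4 libraries (log2 difference 1.51 ± 0.23), while the death receptor Fas was higher in CD4 (-1.23 ± 0.24). In the glycolysis list 1 of 12 genes (8.33%) was higher in CD8, and 0 without CD8 replicate 2, and 3 (25%) were higher in CD4 (median log2 difference 0.11). The glucose transporter Slc2a3 and the lactate exporter Slc16a3 were higher in CD4, with log2 differences of -1.39 ± 0.15 and -2.62 ± 0.55.

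The same contrast in pMT-10 mice without zinc, which shares no library with this one, gave 1012 genes higher in CD8 (8.94%) and 1446 higher in CD4 (12.8%). Of the 1050 genes called higher in CD8 in wild type, 97.8% had the same sign there and 671 were called, 63.9% of the wild-type list and 66.3% of the other. For the 1461 genes higher in CD4 the same sign held for 99.0%, and 1093 were called (74.8% and 75.6% of the lists). In zinc-fed pMT-10 mice 1512 genes were higher in CD8 (13.4%) and 1666 higher in CD4 (14.7%). There 85.4% of the wild-type CD8 genes had the same sign and 583 were called (55.5% and 38.6% of the lists), and 88.4% of the CD4 genes had the same sign and 814 were called (55.7% and 48.9%). Strain, sex and, for the mice without zinc, zinc and chip differ along with these groups and cannot be told apart.

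A test of the difference between the contrasts called 1 gene (0.00884%) as more positive in wild type than in pMT-10 mice without zinc, Adgrg5, and 0 genes (0%) as more negative. The first count was 2 without wild-type CD8 replicate 1 or pMT-10 CD8 replicate 2 or 3. At an unadjusted p under 0.05, 254 of the 11316 genes tested were more positive and 207 more negative. Together these were under the share of 0.05 that such a cutoff passes when no gene differs. DESeq2 called 6 and 2. Adgrg5, an adhesion G protein-coupled receptor, was 149, 164 and 133 CPM in the CD8 libraries and 1.06, 3.7 and 2.36 CPM in the CD4 libraries in wild type (log2 difference 5.96 ± 0.26), against a log2 difference of 3.58 in pMT-10 mice without zinc and 6.10 in zinc-fed pMT-10 mice. Against zinc-fed pMT-10 mice 235 genes (2.08%) were more positive and 386 (3.41%) more negative in wild type. Without wild-type CD4 replicate 1, CD4 replicate 2 and CD8 replicate 3 these counts were 107 and 221, 119 and 254, and 122 and 228. Without pMT-10 CD4 replicates 1 and 3 they were 90 and 165, and 135 and 251, and the first was 155 and 124 without pMT-10 CD8 replicates 1 and 2.

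Genes of the killing and memory lists were among those with a called difference between wild-type and zinc-fed pMT-10 mice. Eomes had a log2 difference of 2.27 in wild type, 2.85 in pMT-10 mice without zinc and -1.12 in zinc-fed pMT-10 mice, where it was higher in CD4 (adjusted p = 0.0028); the contrasts differed by 3.39 ± 0.38 (adjusted p = 5.4e-05). Nkg7 and Prf1, higher in CD8 in wild type, had log2 differences of -0.71 and 0.06 in zinc-fed pMT-10 mice and were not called there (adjusted p = 0.11 and 0.90); the contrasts differed by 3.01 ± 0.46 and 1.99 ± 0.45 (adjusted p = 0.0013 and 0.013), the latter not called when only the libraries of these groups were fitted. Runx3 likewise had -0.01 there (adjusted p = 0.98), against 1.56 in wild type, a difference of 1.57 ± 0.23 (adjusted p = 0.00067). Il10, at 0 in wild-type CD8 libraries, was read at 12.8 ± 9.62 CPM in the CD8 and 21.2 ± 4.71 CPM in the CD4 libraries of zinc-fed pMT-10 mice (SD, n = 3; log2 difference -0.72). Foxp3 and Zbtb7b kept their direction in all 3 kinds of mice, with log2 differences of -8.72, -8.63 and -7.21 for Foxp3 and -5.41, -5.52 and -5.12 for Zbtb7b.

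**Figure D5:**
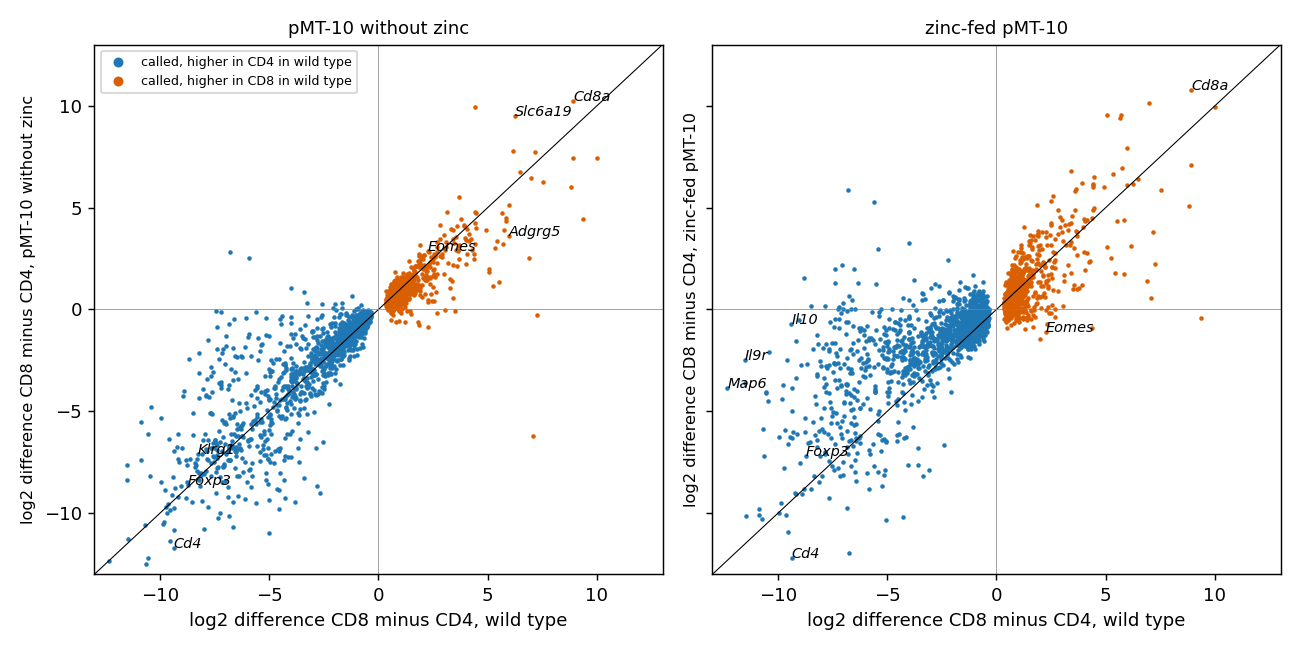
Fitted log2 difference CD8 minus CD4 in pMT-10 mice without zinc (left) and zinc-fed pMT-10 mice (right) against that in wild type, for the genes called in wild type, with the line of equal values. In the left panel 97.8% of the CD8 genes and 99.0% of the CD4 genes keep their sign; in the right panel 85.4% and 88.4% do, and Eomes lies below 0.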

How the data were processed

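Marrow T cells were sorted and their RNA read with the Ion AmpliSeq mouse transcriptome kit, per the labels' protocols. The authors deposited whole-number read counts for 23930 amplicon genes, against build mm10 per the submitters' processing notes. An aligner and a counting tool were not given in the sources used here. The counts were used as deposited. edgeR (4.0.16, R 4.3.3) fitted 6 group means over all 18 libraries with TMM scaling and its default filter on low counts (11316 genes), by the robust quasi-likelihood test with Benjamini-Hochberg adjustment at 0.05. The SE is the log2 difference divided by the square root of the F statistic. Alternatives were DESeq2 (1.42.0), other scalings, other filters, the libraries of the groups alone and each library left out. Gene lists and members were chosen with earlier results of these data known.

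The text names list members that passed the wild-type test, a set of key genes whatever their result (Ly6c2 was not analysed here, and a few are not reported here), outside the lists the 10 largest differences each way among called genes without overlap and with at least 10 CPM in the higher cell type and the 8 most abundant each way that differed by at least 2-fold, and the 8 largest differences each way between mice. Other genes named as not called, Xist and the heat shock pair were chosen after their values were seen. Same-type libraries correlated at 0.958 to 0.966 and different types at 0.889 to 0.906, across genes, which are not independent. Gene positions are GENCODE's of GRCm38, and the promoter stretches and their coordinates are RefSeq's of GRCm38.p6.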

Additional observations from a re-analysis of the deposited data

Results flagged for a closer look

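In 34 cases the CD8 minus CD4 difference of a gene named by rule differed between wild-type and pMT-10 mice by edgeR's test of the difference itself (adjusted p under 0.05). Values below are wild-type minus pMT-10 log2 differences. Strain, the transgene and sex differ between these mice, and for the mice without zinc also zinc and chip, so these cannot be told apart. Against pMT-10 mice without zinc the gene was Adgrg5 (2.38), which was kept without each library in turn.

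Against zinc-fed pMT-10 mice the contrast was more positive in wild type for the memory factor Eomes (3.39), Bend4 (3.04), the granule gene Nkg7 (3.01), Cd4 (2.84), the junction adhesion gene Amica1 (2.67), the platelet and leukocyte protein gene Plek (2.63), the lipase inhibitor Angptl4 (2.60), the granule docking gene Sytl3 (2.53), Crtam (2.38), Prf1 (1.99), Runx3 (1.57), Itgae (1.41) and Il2rb (0.82). It was more negative for Il9r (-9.02), Il10 (-8.68), Map6 (-8.47), Cass4 (-8.34), Itgb8 (-6.51), the costimulatory ligand Cd80 (-6.44), 2900026A02Rik (-5.26), Ankrd6 (-4.84) and Tox2 (-4.82). The first 4 of these were at 0 in wild-type CD8 cells, so their fitted values depend on the prior count.

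Of 20 tested Treg genes 10 were more negative, 1 (Itgae) more positive and 9 not called, Foxp3 and Il2ra among the last (adjusted p = 0.16 and 0.34). Of 24 costimulatory and coinhibitory receptors 7 were more negative and 17 not called. Over all genes tested 3.41% were more negative and 2.08% more positive in wild type. Named genes more negative in wild type, where they were further to the CD4 side, were Nrp1 (-3.94), Ctla4 (-3.60), Ccr4 (-3.54), Pdcd1 (-3.34) and Ikzf2 (-2.08). Also more negative were Gzmb (-2.29), Klrd1 (-2.26), Id3 (-1.98), Klrk1 (-1.67), Itgb1 (-1.39) and Bcl2 (-1.10). Klrd1, Klrk1 and Bcl2 were higher in CD8 in wild type and more so in zinc-fed pMT-10 mice, with log2 differences of 5.91, 3.17 and 2.60 there.

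Leaving out each of the 12 libraries in turn kept 25 of the 34 calls. Bcl2, Cd4, Gzmb, Il2rb and Klrk1 were lost in 9 of 12 cases and Itgb8 in 8. Nrp1 was lost without wild-type CD8 replicate 3 or pMT-10 CD4 replicate 1 or CD8 replicate 3, Ankrd6 without wild-type CD8 replicate 3 and Bend4 without pMT-10 CD4 replicate 1. Without wild-type CD8 replicate 3 the Tox2 value was -9.41, and without pMT-10 CD8 replicate 1 that of Cd4 was 5.2.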

How the results depend on the processing

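Of 276 named genes called in wild type, 221 were called without any single library and 220 of them under every alternative run. None of the 276 changed sign. Among named genes not called, Il2rb moved from a log2 difference of -0.11 to 0.08 without CD4 replicate 3. A minimum mean of 5 CPM left 7 helper genes higher in CD4, with fewer genes tested. The counts of genes higher in CD8 and in CD4 in wild type stayed within 1.5 times under every alternative, with 745 to 929 and 1155 to 1276 when single libraries were left out; the share higher in CD8 was 41.8%, and 34.0% with library size as the only scaling. Leaving out libraries gave 679 to 852 and 1126 to 1190 calls in pMT-10 mice without zinc and 1039 to 1447 and 1127 to 1561 in zinc-fed pMT-10 mice. For the difference from mice without zinc (1 more positive, 0 more negative), DESeq2 gave 6 and 2, no filter on low counts 44 and 27, and the libraries of the groups alone 2 more positive, with 1 to 2 and 0 to 0 on leaving out libraries. For the difference from zinc-fed pMT-10 mice (235 and 386), library size alone gave 120 and 648, DESeq2 422 and 608, no filter 714 more negative and the libraries of the groups alone 149 more positive, with 90 to 335 and 165 to 558 on leaving out libraries. The cause of these moves was not tested. No paired analysis was run, because replicate numbers follow the order of the samples and no label gives a number shared between the groups. A pairing by that order would have been assumed, not read from the labels. Depth limits calls of genes near 0 reads, and amplicon reads are counted without molecular identifiers that the sources used here name.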

Other observations

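Regulators of G protein and purine signalling were higher in CD4 for 11 of 17 tested and higher in CD8 for 1, Adgrg5 (median log2 difference -1.08). The shares were 64.7% and 5.88%, against 12.9% and 9.28% over all genes tested. P2rx7, the ATP-gated channel that triggers death of Treg and memory cells, was 80.6, 86.2 and 136 CPM in the CD4 libraries and 3.78, 6.45 and 7.23 CPM in the CD8 libraries (log2 difference -4.11 ± 0.28). Rgs1 and Rgs16, which shut off chemokine receptor signals, had log2 differences of -3.11 ± 0.27 and -5.89 ± 0.57, and the adenosine and prostaglandin receptors Adora2a and Ptger4 of -1.41 ± 0.24 and -1.83 ± 0.18. The CD4 and CD8 libraries did not overlap for P2rx7, Adora2a or Ptger4. Of 14 tested genes for galectins and glycan-building enzymes 7 (50%) were higher in CD4 and 2 (14.3%) in CD8 (median log2 difference -0.67). The sialyltransferase St8sia6 was 47.6, 67.2 and 43.7 CPM in the CD4 libraries and 1.8, 1.12 and 1.61 CPM in the CD8 libraries, while its relative St3gal6 was higher in CD8, at 100.05, 124 and 108 CPM in the CD8 libraries and 35.4, 42.6 and 44.1 CPM in the CD4 libraries. B4galnt1, which makes gangliosides, was the other CD8 call (0.77 ± 0.14).

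All 6 libraries came from zinc-fed mice. Of 18 metallothionein and zinc transporter genes 2 (11.1%) were higher in CD8 and 4 (22.2%) in CD4 (median log2 difference 0.06). Over all genes tested the shares were 9.28% and 12.9%. The count in CD8 was 1 without CD4 replicate 2, CD8 replicate 2 or CD8 replicate 3. Mt1, a zinc-binding metallothionein, was 4.64, 5.56 and 3.06 CPM in the CD4 libraries and 0.172, 0.561 and 0.468 CPM in the CD8 libraries (log2 difference -3.43 ± 0.78, adjusted p = 0.0026). Zinc exporter Slc30a4 was higher in CD8 (1.40 ± 0.25) and zinc importers Slc39a4 and Slc39a13 in CD4 (-1.60 ± 0.26 and -1.26 ± 0.22).

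Immediate early and heat shock genes, which respond to cell handling among other signals, had a median log2 difference of -0.27. Of 20 tested 6 (30%) were higher in CD4 and 1 (5%) in CD8, against 12.9% and 9.28% over all genes tested. The CD8 call, Egr3 (adjusted p = 0.0072), was not called without CD8 replicate 2 (adjusted p = 0.055). Dusp1, a phosphatase of MAP kinases, was 35.8, 47.2 and 50.4 CPM in the CD4 libraries and 4.2, 5.98 and 7.3 CPM in the CD8 libraries, and Nfkbia, the NF-kappaB inhibitor, had a log2 difference of -1.35 ± 0.18. Fos and Egr1 were not called (-0.28 ± 0.54 and 0.11 ± 0.26). The heat shock gene Hspa1a was 20.3, 54.7 and 3.3 CPM in the CD4 libraries and 22.1, 64.7 and 0.736 CPM in the CD8 libraries, and Hspa1b was 51.9, 151 and 10.9 CPM in the CD4 libraries and 35, 142 and 1.94 CPM in the CD8 libraries. Both genes spread widely within each cell type and were not called (adjusted p = 0.95 and 0.91), and as close copies they may share reads. In both cell types replicate 2 was highest and replicate 3 lowest for both genes. A link between libraries of the same number was not tested.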
